A study of Mus musculus with 9 samples.

Results

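Genes of BMP and activin signaling were read in fibroblasts from fibrotic mouse livers and in hepatic stellate cells (HSCs), the vitamin A-storing pericytes of the liver sinusoid. The 10 genes were taken by symbol, as a list drawn up with earlier results of these data known, from the 24453 genes of the deposited file. They are the BMP ligands Bmp2, Bmp4, Bmp5, Bmp6, Bmp10 and Gdf2 (which encodes BMP9), the activin subunit gene Inhba, the secreted antagonist Grem1, the pseudoreceptor Bambi and the target gene Id1, and all 10 were found. Of these, 9 passed the filter on low reads and were tested, and Grem1 did not pass it.

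RNA sequencing covered 9 libraries, 3 in each of 3 groups, all from C57BL/6J mice and each made from the pooled cells of 3 to 5 mice. HSCs came from untreated wild-type livers and were isolated by density, without a fluorescent sort. CCl4-fib were CD45-GFP+ cells sorted from mice carrying a GFP transgene under the Col1a2 promoter (Col1a2-GFP) that had received CCl4, a hepatotoxin, 2 times per week for 8 weeks. NASH-fib were sorted in the same way from Col1a2-GFP mice that also lacked the melanocortin 4 receptor (MC4R-KO), male and 8 weeks of age when they were put on Western diet (WD) for 20 weeks, a model of obesity with non-alcoholic steatohepatitis. Genotype, diet and agent therefore change together between NASH-fib and CCl4-fib, and the way of isolation changes between HSCs and either fibroblast group, so that these cannot be told apart. The sort keeps whichever CD45- cells have an active Col1a2 promoter. In bulk RNA, fewer cells of a type and less RNA per cell cannot be told apart either.

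BMPs and activins are dimeric ligands of the TGFβ superfamily that bring type I and type II receptor kinases together. BMP receptors phosphorylate Smad1, Smad5 and Smad9, and activin receptors phosphorylate Smad2 and Smad3, which enter the nucleus with Smad4. In the liver, BMP2 and BMP6 from endothelial cells control hepcidin in hepatocytes, BMP9 and BMP10 from stellate cells act on the endothelium, and secreted antagonists such as gremlin and follistatin bind the ligands before they reach a receptor.

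Their transcripts and positions in mm10 are those of the file. Bmp2 (NM_007553) lies on chr2:133552159-133562896, Bmp4 (NM_007554) on chr14:46383525-46390669, Bmp5 (NM_007555) on chr9:75775365-75900316 and Bmp6 (NM_007556) on chr13:38345716-38500314. Bmp10 (NM_009756) lies on chr6:87428994-87434512, Gdf2 (NM_019506) on chr14:33941039-33947198 and Inhba (NM_008380) on chr13:16014475-16027211. Grem1 (NM_011824) lies on chr2:113748675-113758648 and Id1 (NM_010495) on chr2:152736251-152737410. Reads of either strand were counted on exons. Bmp5 shares 1878 exon bases with the antisense gene Gm26903, Bmp6 shares 224 with Txndc5 and Bmp4 shares 89 with Gm15217, all on the opposite strand, so that reads in those bases cannot be assigned to one gene. The other members share none.

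The RefSeq table (GRCm38.p6) held a promoter for 7 of the members. Of these, Bmp5, Gdf2 and Bmp10 were the ligand genes highest in HSCs per kilobase of exon. The 250 bases before their starts are printed 5′ to 3′ to show the stretch that precedes the genes whose levels fell together. They lie on the plus strand at chr9:75775115-75775364, chr14:33940789-33941038 and chr6:87428744-87428993. Capitals mark each match on either strand to 1 of 3 motifs, which are AGATAA, known to be bound by factors of the Gata family, the TATA box core TATAAA, and the homeodomain motif TAATTA.
Bmp5: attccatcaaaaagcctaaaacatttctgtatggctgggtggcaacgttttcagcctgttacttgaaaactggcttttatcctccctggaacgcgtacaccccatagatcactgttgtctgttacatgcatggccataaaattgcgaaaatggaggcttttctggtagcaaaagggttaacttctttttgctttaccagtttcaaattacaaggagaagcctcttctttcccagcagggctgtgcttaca
Gdf2: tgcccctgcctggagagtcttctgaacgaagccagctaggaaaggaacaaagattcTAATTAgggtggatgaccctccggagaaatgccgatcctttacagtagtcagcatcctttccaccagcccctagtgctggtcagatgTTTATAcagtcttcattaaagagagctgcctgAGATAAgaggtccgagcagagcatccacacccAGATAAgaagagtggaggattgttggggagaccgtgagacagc
Bmp10: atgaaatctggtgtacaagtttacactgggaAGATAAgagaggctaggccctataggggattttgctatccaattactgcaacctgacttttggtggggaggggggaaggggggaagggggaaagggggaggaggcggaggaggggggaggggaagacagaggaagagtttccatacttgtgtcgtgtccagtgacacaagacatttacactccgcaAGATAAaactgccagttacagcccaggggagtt
Gdf2 and Bmp10 each held AGATAA 2 times, with the match nearest to the start beginning 43 and 33 bases before it. Of 32851 promoters of that length, 9.99% held AGATAA at least once. Gdf2 also held TATAAA, found in 12.4% of promoters, and TAATTA, found in 4.84%. Bmp5 held none of these letters in this window, and neither did the windows of Bmp4 and Bmp6. GGCGCC, a motif bound by Smad1 and Smad5, was found in 9.59% of promoters and, among the 7 members, in Grem1. G and C made up 42.8% of the window of Bmp5, 50.4% of Gdf2 and 52% of Bmp10, and 63.2%, 68.8% and 72% of those of Bmp4, Bmp6 and Grem1, against a median of 52.4% over all promoters.

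The libraries held 3071070 to 3825522 reads on genes in HSCs, 4687349 to 5634273 in CCl4-fib and 3289758 to 5021156 in NASH-fib. A value is the count of a gene multiplied by 1 factor per library, so that all libraries have the same total, and 3 reads correspond to a value of 2.38 to 4.37. Log2(value + 1) of the 13651 genes that passed the filter was compared with limma, with p-values adjusted over all of them by the Benjamini-Hochberg method, and genes with an adjusted p under 0.05 and a log2 fold change of 1 or more in either direction are termed called. P-values measure the spread between pools of mice. An exact permutation test of 3 against 3 libraries cannot give a p under 0.1. Within-group correlations over genes were 0.914 to 0.937 in CCl4-fib, 0.833 to 0.914 in HSCs and 0.768 to 0.908 in NASH-fib, where NASH-fib 1 stood farthest from the others (0.768 and 0.815). With HSC 2, NASH-fib 1 had a correlation of 0.793. Mc4r, the deleted gene, was read 0 times in each HSC or CCl4-fib library and 4, 13 and 0 times in the NASH-fib libraries, too seldom to check the genotype.

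The cell type labels were set against marker lists, given as values summed over each list. Quiescent stellate markers (14 genes) summed to 60087 to 68035 in HSCs, 19634 to 21041 in CCl4-fib and 19988 to 21671 in NASH-fib, and activated fibroblast markers (11 genes) to 7305 to 12734, 54123 to 61991 and 35728 to 40555. Sinusoidal endothelial markers (12 genes) summed to 8816 to 17676 in HSCs, 321 to 396 in CCl4-fib and 1397 to 4409 in NASH-fib, and macrophage markers (9 genes) to 3565 to 11476, 181 to 268 and 549 to 2409. Hepatocyte markers (15 genes) summed to 38746 to 78465, 15930 to 23238 and 18766 to 51656. Mesothelial markers (6 genes) summed to 601 to 985 in HSCs, 16042 to 22184 in CCl4-fib and 25119 to 31713 in NASH-fib, portal fibroblast markers (9 genes) to 189 to 453, 13866 to 16682 and 6467 to 16137, and smooth muscle markers (6 genes) to 100 to 172, 2959 to 14373 and 5821 to 20794. Cholangiocyte markers (6 genes) summed to 72.5 to 226 in HSCs, 3488 to 4778 in CCl4-fib and 6087 to 11854 in NASH-fib, and 6 of the 6 were called higher in NASH-fib against HSCs and 4 in CCl4-fib. Most of the sum in NASH-fib was Spp1 (10730, 4847 and 5255), which is also on the activated fibroblast list. Of the 6, 4 were higher in NASH-fib than in CCl4-fib without overlap, and Krt19 was lower (53.0, 469 and 348 against 2174, 2699 and 771). Neutrophil markers (6 genes) summed to 46.8 to 1021, 5.55 to 65.8 and 580 to 5707, lymphocyte markers (7 genes) to 44.4 to 116, 8.5 to 15.3 and 69.5 to 285, and markers of proliferating cells (6 genes) to 484 to 637, 909 to 1143 and 528 to 671. Markers of several cell types moved with the groups, and their part in the results was not tested.

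Among the member ligand genes, Bmp2, Bmp5, Bmp10 and Gdf2 had the highest levels per kilobase of exon in HSCs. Each was lower in both fibroblast groups, whereas Bmp4 was higher in NASH-fib. Against HSCs, NASH-fib had 7 of the 9 tested genes called, with Bmp4 higher and Bmp2, Bmp5, Bmp6, Bmp10, Gdf2 and Bambi lower. Of all tested genes 12.5% were called in this comparison, 8.23% as higher and 4.3% as lower. CCl4-fib had 6 of the 9 called against HSCs, the same 6 genes as lower, where the background was 27.8% called, 16.2% as higher and 11.7% as lower. As higher, 0 of the 9 were called in CCl4-fib by limma, by edgeR or by DESeq2, and 0 by limma at an unadjusted p under 0.05. The median log2 fold change of the 9 was -1.99 in NASH-fib and -1.32 in CCl4-fib, beside -0.02 and 0.18 over all tested genes. Both comparisons share the HSC libraries. In NASH-fib 1 gene lay above the range of HSCs without overlap and 6 below it, against 12.7% and 11.6% of all genes, and in CCl4-fib 1 above and 6 below, against 27.8% and 20.9%. The names of the libraries in the labels start with a number pair that reads as a day, and with this prefix as a block 3 genes kept the call in NASH-fib (Bmp2, Bmp5 and Gdf2, all lower), with 4.89% of all genes called. HSC 1 shares its prefix with no other library and adds nothing to that comparison. The block also leaves fewer degrees of freedom, so that a call lost under it cannot be told from a loss of power. Within the only prefix that holds a library of each group (HSC 2, CCl4-fib 1 and NASH-fib 1), the 7 genes called in NASH-fib had the same direction. Since none of the 7 overlapped between HSCs and NASH-fib, any pair of libraries would give this, and it adds no support.

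**Figure D1:**
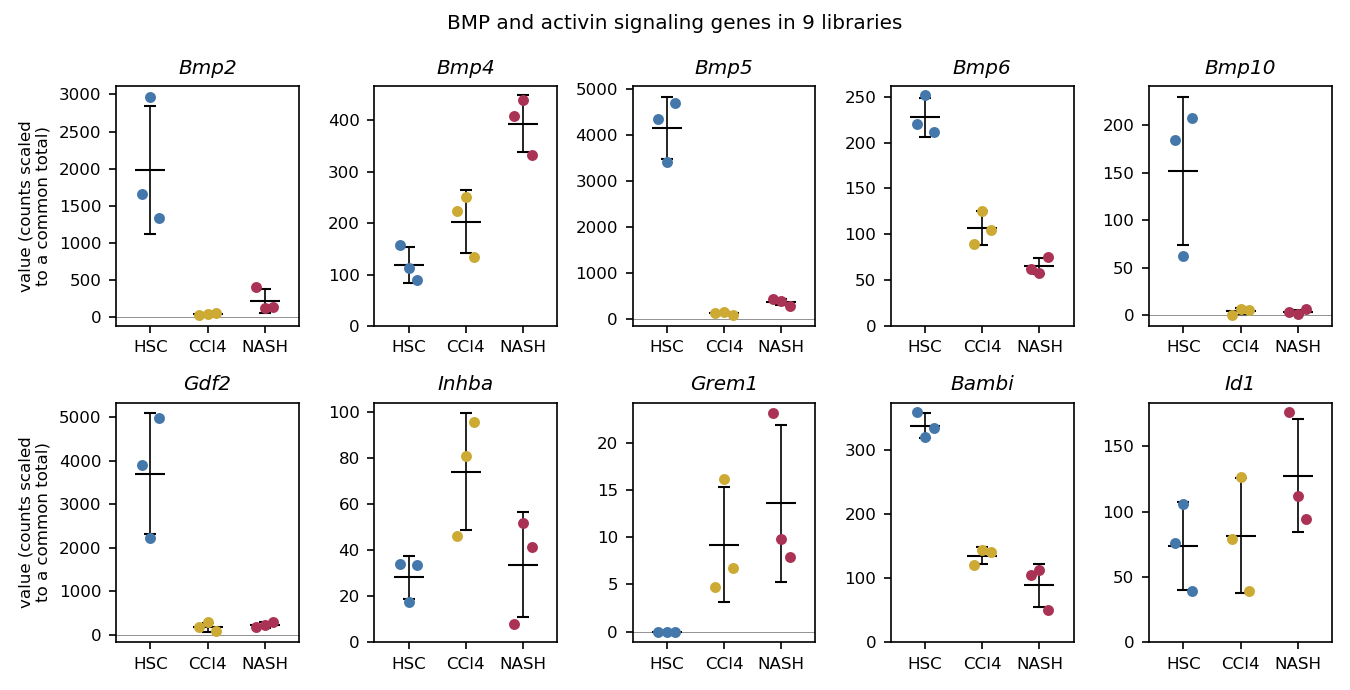
Values (counts scaled to a common total) of the 10 genes in each of the 9 libraries, on linear axes that differ between panels. Points are libraries, bars the mean and SD of 3 libraries per group. Bmp2, Bmp5, Bmp10 and Gdf2 were high in HSCs and low in both fibroblast groups, Bmp4 was highest in NASH-fib, and Grem1 had no read in HSCs.

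Gdf2, whose product BMP9 circulates and signals through Acvrl1 on endothelium, had values of 3886, 2231 and 4977 in the HSC libraries, 178, 286 and 79.2 for CCl4-fib and 171, 221 and 301 for NASH-fib. Every HSC library was above every fibroblast library, and the fibroblast groups overlapped. The log2 fold change was -3.96 (SE 0.50) in NASH-fib, with a limma adjusted p of 0.000462, and -4.45 (SE 0.50) in CCl4-fib, with an adjusted p of 0.000146. Bmp10, which encodes the closest relative of BMP9, had values of 185, 62.6 and 208 in HSCs, 0, 6.8 and 4.77 for CCl4-fib and 2.72, 0.89 and 5.9 for NASH-fib. The fibroblast values rest on 0 to 8 reads, and HSC 2 was the lowest HSC library for Bmp10 as for Gdf2. It was lower by a log2 fold change of -5.21 (SE 0.90, limma adjusted p = 0.00301) in NASH-fib and -5.25 (SE 0.90, adjusted p = 0.00177) in CCl4-fib.

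Bmp5, a ligand of the same subgroup as Bmp6 and Bmp7, had values of 4359, 3406 and 4706 in HSCs, 131, 146 and 82.0 for CCl4-fib and 420, 390 and 284 for NASH-fib. The 3 groups did not overlap, and the NASH-fib libraries lay between the others. The log2 fold change against HSCs was -3.51 (SE 0.34, limma adjusted p = 0.000103) in NASH-fib and -5.13 (SE 0.34, adjusted p = 1.27e-05) in CCl4-fib. Bmp6, a regulator of hepcidin, had values of 220, 252 and 212 in HSCs, 88.9, 126 and 105 for CCl4-fib and 62.5, 57.9 and 74.7 for NASH-fib. It too had no overlap between the groups, and here NASH-fib was lowest. Against HSCs it had a log2 fold change of -1.80 (SE 0.34, limma adjusted p = 0.00569) in NASH-fib and -1.10 (SE 0.34, adjusted p = 0.037) in CCl4-fib. The call in CCl4-fib was lost in 7 of 9 fits that left out a library, namely each HSC library, each CCl4-fib library or NASH-fib 3, with an adjusted p of at most 0.13, and with the prefix as a block (adjusted p = 0.15) or the replicate number as one (0.0685).

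Bmp2, a close relative of Bmp4, had values of 1660, 2966 and 1340 in HSCs, 30.2, 41.7 and 50.6 for CCl4-fib and 411, 126 and 136 for NASH-fib. The groups did not overlap, and HSC 2 and NASH-fib 1 were the high libraries of their groups. It was lower than in HSCs by a log2 fold change of -3.29 (SE 0.51, limma adjusted p = 0.00164) in NASH-fib and -5.52 (SE 0.51, adjusted p = 5.68e-05) in CCl4-fib. The summed sinusoidal endothelial markers were 12927, 8816 and 17676 in the HSC libraries and 2819, 1397 and 4409 in NASH-fib, and the list did not move as one within a group. HSC 2, the highest in Bmp2 of its group, was also the highest for 4 of the 12 markers (Lyve1, Cdh5, Tek and Tie1) and had the lowest sum, and NASH-fib 1 was the highest of its group for 3 (Lyve1, Cdh5 and Tek). Most markers were highest in another library, 7 of the 12 in HSC 3 and 9 of the 12 in NASH-fib 3. Of the 12 endothelial markers 9 were called lower in NASH-fib and 12 in CCl4-fib against HSCs. Their part in the lower levels of Bmp2 and Bmp6 was not tested. The lower calls of Bmp2, Bmp5, Bmp10 and Gdf2 against HSCs were kept in all 9 fits that left out a library, in both fibroblast groups.

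Bmp4 went the other way. Its values were 157, 112 and 88.5 in HSCs, 223, 251 and 135 for CCl4-fib and 409, 439 and 332 for NASH-fib. All NASH-fib libraries were above all others, and CCl4-fib 3 lay within the range of HSCs. The log2 fold change against HSCs was 1.75 (SE 0.38, limma adjusted p = 0.0113) in NASH-fib and 0.75 (SE 0.38, adjusted p = 0.163) in CCl4-fib, where the 95% interval ran from -0.08 to 1.59. The call in NASH-fib was kept in all 9 fits that left out a library.

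Inhba encodes the βA subunit, which as a dimer forms activin A. Its values were 33.9, 17.5 and 33.5 in HSCs, 46.0, 80.8 and 95.4 for CCl4-fib and 8.16, 51.7 and 41.3 for NASH-fib. Every CCl4-fib library was above every HSC library, and NASH-fib ran from below to above the range of HSCs, with NASH-fib 1 the lowest of all 9. From HSCs its log2 fold change was 1.35 (SE 0.69, limma adjusted p = 0.166, 95% interval -0.16 to 2.87) in CCl4-fib and -0.04 (SE 0.69, adjusted p = 0.99, 95% interval -1.56 to 1.48) in NASH-fib. Neither passed the test. The value in NASH-fib lay so near 0 that its sign turned under edgeR, DESeq2, both rescalings, a pseudocount of 5 and without HSC 1, HSC 3 or NASH-fib 1, and without NASH-fib 1 it was 0.75 (adjusted p = 0.4).

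Grem1 encodes gremlin, a cystine-knot protein that binds and holds BMP2 and BMP4. It had 0 reads in all 3 HSC libraries, which allows a value of up to 4.37, and 6, 19 and 7 reads for CCl4-fib and 17, 11 and 8 for NASH-fib. These reads correspond to values of 4.76, 16.2 and 6.68 for CCl4-fib and 23.1, 9.8 and 7.86 for NASH-fib. Against the floor of 3 reads per library, the mean was at least 3.56-fold higher in NASH-fib and at least 2.41-fold higher in CCl4-fib than in HSCs, and the ranges of the fibroblast groups overlapped. Floors cover counting error only, since reads amplified by PCR and carrying no molecular identifier can repeat a molecule. The lowest library was 2.06 times the floor in NASH-fib and 1.25 times in CCl4-fib. In a limma fit of all genes with a read, without the filter, the adjusted p was 0.00427 in NASH-fib and 0.00607 in CCl4-fib against HSCs, and 0.637 between the fibroblast groups. With every HSC value at 0, that fit has no spread in HSCs and its estimates against HSCs depend on the pseudocount. These p-values therefore add no support to the floor comparison.

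Bambi (NM_026505, chr18:3507957-3516404) encodes a receptor without a kinase domain that dampens BMP, activin and TGFβ signals. Its values were 359, 320 and 335 in HSCs, 121, 145 and 141 for CCl4-fib and 105, 112 and 51.1 for NASH-fib. All fibroblast libraries were below all HSC libraries, and NASH-fib was below CCl4-fib with no overlap. Its log2 fold change from HSCs was -1.99 (SE 0.38, limma adjusted p = 0.00586) in NASH-fib and -1.32 (SE 0.38, adjusted p = 0.0276) in CCl4-fib. The call in CCl4-fib was lost without any of the HSC or CCl4-fib libraries, with an adjusted p of at most 0.0943, and with the prefix as a block (adjusted p = 0.152), while that in NASH-fib was kept without any one library and lost with the prefix block (0.182).

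Id1, an inhibitor of bHLH factors and an immediate target of Smad1, had values of 76.0, 106 and 39.4 in HSCs, 79.4, 127 and 39.1 for CCl4-fib and 177, 112 and 94.4 for NASH-fib. The 3 groups overlapped. From HSCs it differed by a log2 fold change of 0.84 (SE 0.55, limma adjusted p = 0.443, 95% interval -0.37 to 2.05) in NASH-fib and 0.10 (SE 0.55, adjusted p = 0.904, 95% interval -1.11 to 1.31) in CCl4-fib. Each interval reached past a log2 fold change of 1, the size required of a call.

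Between the fibroblast groups, 2 of the 9 tested genes were called, Bmp2 and Bmp5, both higher in NASH-fib. Of all tested genes 10.6% were called in this comparison, 4.97% as higher and 5.66% as lower. NASH-fib exceeded CCl4-fib by a log2 fold change of 2.23 (SE 0.51, limma adjusted p = 0.0247) for Bmp2 and 1.62 (SE 0.34, adjusted p = 0.0198) for Bmp5. Both calls were lost in the same 4 fits, those without CCl4-fib 1, 2 or 3 or without NASH-fib 3, where the adjusted p was 0.0527 to 0.0918 for Bmp2 and 0.0515 to 0.0651 for Bmp5. The call of Bmp2 was also lost with the prefix as a block (adjusted p = 0.0579) or the replicate number as one (0.0513), and that of Bmp5 was kept with both. Of the 12 sinusoidal endothelial markers 9 were called higher in NASH-fib than in CCl4-fib as well, and their part in this difference was not tested.

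The other 7 did not pass the test between the fibroblast groups. Bmp4 was higher in every NASH-fib library than in any CCl4-fib library, by 0.99 on the log2 scale (SE 0.38, limma adjusted p = 0.117), and DESeq2 called it (1.13, adjusted p = 0.0299). Bmp6 and Bambi were lower in every NASH-fib library, with log2 fold changes of -0.70 (SE 0.34, limma adjusted p = 0.209) and -0.67 (SE 0.38, adjusted p = 0.273), and over all genes 17.1% were higher and 22% lower without overlap. Inhba had a log2 fold change of -1.40 (95% interval -2.91 to 0.12), Gdf2 of 0.50 (95% interval -0.61 to 1.60), Id1 of 0.74 (95% interval -0.47 to 1.95) and Bmp10 of 0.04 (95% interval -1.94 to 2.02).

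**Figure D2:**
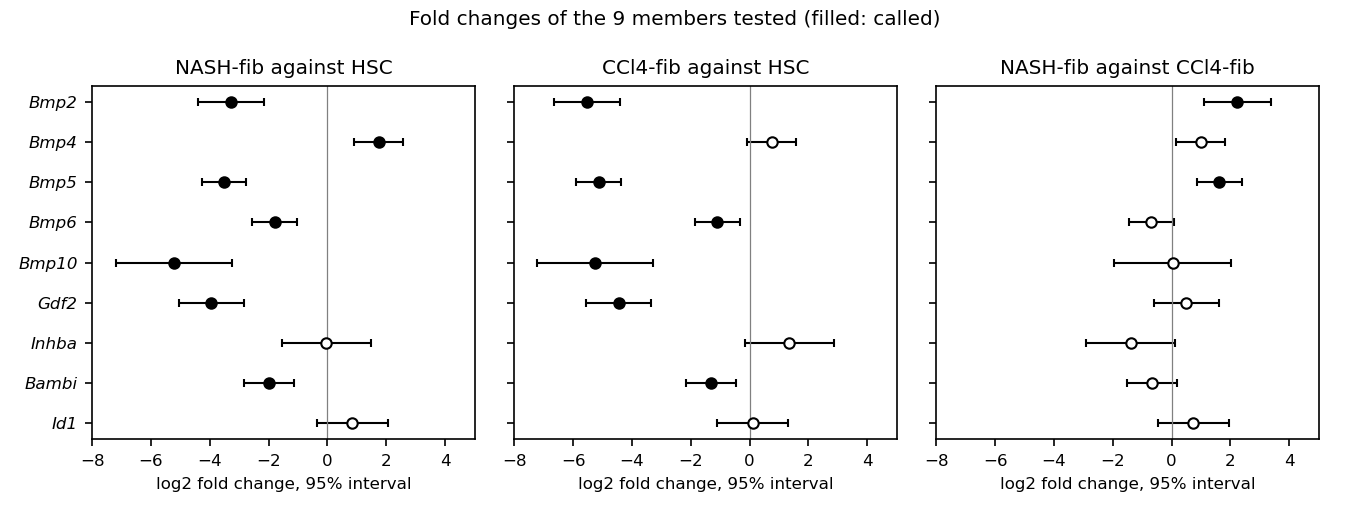
Log2 fold change (x axis) of the 9 tested genes in the 3 comparisons, as the limma estimate with its 95% interval. Filled points are called. Bmp2, Bmp5, Bmp6, Bmp10, Gdf2 and Bambi lie left of 0 in both comparisons with HSCs, and Bmp2 and Bmp5 lie right of 0 between the fibroblast groups.

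Levels of different genes were compared as values per kilobase of exon. In HSCs Gdf2 was highest, at 1239 ± 463 (SD, n = 3), followed by Bmp5 at 1089 ± 176, whose range overlapped that of Gdf2, and by Bmp2 at 558 ± 242, whose range overlapped that of Gdf2 and not that of Bmp5. Bmp10 (115 ± 59.1), Id1 (79.5 ± 36.0), Bmp6 (76.3 ± 7.14), Bambi (67.1 ± 3.87) and Bmp4 (58.0 ± 16.9) followed, each overlapping the next, and Inhba was at 18.6 ± 6.15, below the range of Bmp4. In CCl4-fib Bmp4 was the highest of the 10 at 98.8 ± 29.6, overlapping Id1 (87.9 ± 47.2), Gdf2 (60.6 ± 34.6) and not Inhba (48.6 ± 16.6), which lay just under it. Bmp6 (35.7 ± 6.21), Bmp5 (31.4 ± 8.79) and Bambi (26.9 ± 2.57) came next there, each overlapping the next. Below the range of Bambi lay Bmp2 (11.5 ± 2.87), Grem1 (5.63 ± 3.73) and Bmp10 (2.92 ± 2.64), again each overlapping the next. In NASH-fib Bmp4 led at 192 ± 26.9, overlapping Id1 (137 ± 46.6) and no other member. Bmp5 (95.5 ± 18.7), Gdf2 (77.4 ± 21.9) and Bmp2 (62.9 ± 45.4) overlapped each other and none of the lower genes, and Inhba (22.1 ± 14.9), Bmp6 (21.8 ± 2.91), Bambi (17.7 ± 6.62), Grem1 (8.31 ± 5.08) and Bmp10 (2.40 ± 1.92) were at the lower end, with Bmp10 below the range of Grem1.

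Among the 7 member ligand genes, Bmp4 was near the lower end in HSCs and had the highest mean in both fibroblast groups. The 7 ligand genes summed per kilobase to 3222, 2670 and 3570 in the HSC libraries, 271, 368 and 229 for CCl4-fib and 510, 479 and 432 for NASH-fib, so that the groups did not overlap. Gdf2 made up 38.4% ± 9.53 (SD, n = 3) of the sum in HSCs, Bmp5 34.5% ± 1.02 and Bmp2 18.7% ± 11.0, while Bmp4 made up 1.87% ± 0.599. In CCl4-fib the share of Bmp4 was 34.0% ± 5.79, that of Gdf2 19.9% ± 7.44, of Inhba 17.6% ± 8.56, of Bmp6 12.6% ± 2.39 and of Bmp5 10.8% ± 1.68. In NASH-fib Bmp4 held 40.4% ± 3.75, Bmp5 20.0% ± 2.43, Gdf2 16.7% ± 6.15, Bmp2 12.9% ± 8.40 and Inhba 4.80% ± 3.27. A share also rises when the sum falls, and Bmp4 itself was not called in CCl4-fib (log2 fold change 0.75, limma adjusted p = 0.163). Ligand genes outside the members were left out of the sum. Among them, Gdf10 had a mean of 372 per kilobase in HSCs, 78.6 in CCl4-fib and 159 in NASH-fib. In both fibroblast groups this was above every member ligand but Bmp4. Shares of transcripts per length say nothing of the amount of protein.

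**Figure D3:**
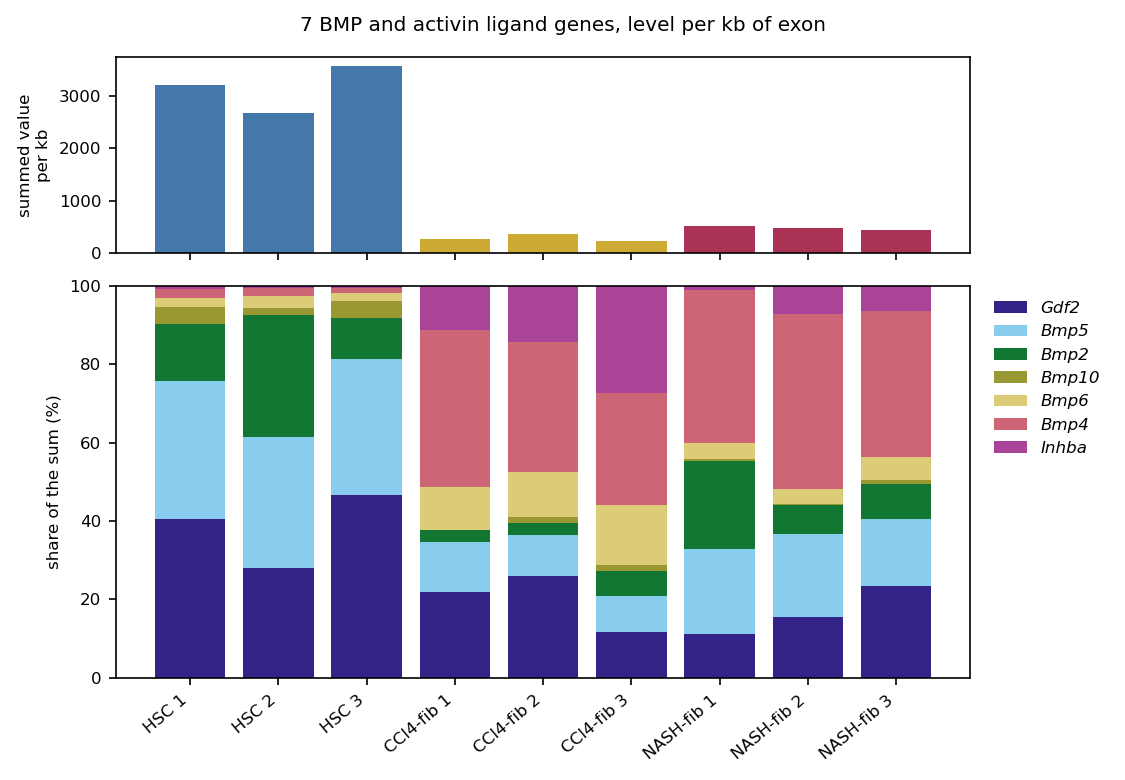
Summed value per kilobase of exon of the 7 ligand genes (upper panel) and the share of each ligand in that sum in percent (lower panel), for each of the 9 libraries. The sum was 2670 to 3570 in HSCs and at most 510 in the fibroblasts, and the share of Bmp4 was at most 2.37% in HSCs and between 28.6% and 44.6% in the fibroblast libraries.

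Ratios within a library do not depend on its scaling. Per kilobase, the ratio of Bmp4 to Bmp2 was 0.0656 to 0.164 in the HSC libraries, 4.61 to 12.8 in CCl4-fib and 1.73 to 6.06 in NASH-fib, so that the 2 closely related genes changed places in all 6 fibroblast libraries. The ratio of Bmp5 to Bmp6 was 10.6 to 17.4 in HSCs, 0.612 to 1.15 in CCl4-fib and 2.98 to 5.27 in NASH-fib, with no overlap between the groups. The ratio of Bmp5 to Gdf2 was 0.739 to 1.19 in HSCs, 0.4 to 0.81 in CCl4-fib and 0.738 to 1.92 in NASH-fib, and here the groups overlapped.

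The genes with the most similar pattern were found by the root-mean-square difference of log2(value + 1) over the 9 libraries, after each gene was centred on its mean. For Bmp2 these were Hpse (0.36) and Rspo3 (0.55), for Bmp4 Il17rd (0.24) and Syde2 (0.25), for Bmp5 Ehd3 (0.34) and Abcc9 (0.42), and for Bmp6 Lrp5 (0.20) and Il10rb (0.25). For Bmp10 they were Nt5e (0.77) and D430019H16Rik (0.82), for Gdf2 Hs3st3b1 (0.46) and Adra2b (0.51), for Inhba Klhl26 (0.26) and 2810004N23Rik (0.26), for Bambi Trim25 (0.20) and Tmem9b (0.20), and for Id1 Ubxn2b (0.23) and Trmt10c (0.30). Among the members themselves the nearest were Bambi and Bmp6 (0.41), Bmp4 and Id1 (0.54), Bmp5 and Gdf2 (0.64) and Bmp2 and Bmp5 (0.70). Genes that vary little between libraries lie closer to each other on this measure than genes that vary much.

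The pathway around the members was read in 85 further genes, of which 62 were tested. In NASH-fib 16 of them were higher and 5 lower than in HSCs by the same call, and in CCl4-fib 15 were higher and 12 lower, with 11 of the higher and 4 of the lower calls in both. Between the fibroblast groups NASH-fib had 5 higher and 3 lower calls. The background is that given above for each comparison. Without any one library, 13 of the 21 calls in NASH-fib against HSCs, 21 of the 27 in CCl4-fib against HSCs and 3 of the 8 between the fibroblast groups were kept. With the prefix of the library names as a block, 12 of the 21 calls in NASH-fib against HSCs were lost (Acvr2a, Bmp7, Bmper, Chrd, Crim1, Eng, Fstl1, Gdf6, Nbl1, Neo1, Rgma and Twsg1), as were 6 of the 27 in CCl4-fib (Bmp7, Bmpr2, Smad1, Smad7, Tgfbr3 and Tll1) and 3 of the 8 between the fibroblast groups (Amhr2, Hamp and Pmepa1). Under edgeR the calls lost were Crim1 in NASH-fib and Bmp7 and Tll1 in CCl4-fib against HSCs, and Bmpr1b and Pmepa1 between the fibroblast groups. Crim1 in NASH-fib against HSCs was also lost under both rescalings.

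The list of extracellular antagonists and modulators held most of the higher calls. It joins proteins that bind ligands outside the cell with others, such as the protease Bmp1, its relative Tll1 and the membrane protein Crim1. Of 14 tested, 10 were called higher in NASH-fib against HSCs and 10 in CCl4-fib, 8 of them in both, and the other 4 in each comparison did not pass the test. Of all tested genes 8.23% were called higher in NASH-fib and 16.2% in CCl4-fib. Fst, which encodes the activin-binding follistatin, had values of 12.9, 1.46 and 1.20 in HSCs, 106, 59.5 and 56.3 for CCl4-fib and 272, 188 and 391 for NASH-fib. Against HSCs it differed by a log2 fold change of 6.01 (SE 0.71, limma adjusted p = 0.000303) in NASH-fib and 4.09 (SE 0.71, adjusted p = 0.00189) in CCl4-fib. All fibroblast libraries were above all HSC libraries, and NASH-fib was above CCl4-fib with no overlap, as were 17.1% of all genes. Between the fibroblast groups Fst was not called (1.92, SE 0.71, limma adjusted p = 0.106).

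Chrdl1, which encodes the BMP4-binding chordin-like 1, separated the fibroblast groups. Its values were 16.4, 23.3 and 33.5 in HSCs, 141, 27.2 and 14.3 for CCl4-fib and 1200, 1174 and 1537 for NASH-fib. The log2 fold change of NASH-fib was 5.73 (SE 0.70, limma adjusted p = 0.000393) against HSCs and 5.04 (SE 0.70, adjusted p = 0.00712) against CCl4-fib, and that of CCl4-fib against HSCs was 0.69 (SE 0.70, adjusted p = 0.485). Bmp1, a protease that cleaves chordin and procollagens and is no BMP ligand, had values of 60.8, 75.7 and 117 in HSCs, 792, 1230 and 1451 for CCl4-fib and 73.4, 183 and 187 for NASH-fib. It was higher in CCl4-fib than in HSCs by 3.77 (SE 0.46, limma adjusted p = 0.000256) and lower in NASH-fib than in CCl4-fib, with a log2 fold change of -3.03 (SE 0.46, adjusted p = 0.00837).

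The other antagonists and modulators called higher in both groups were Fstl3 (log2 fold changes of 3.45 in NASH-fib and 3.85 in CCl4-fib), Nbl1 (3.99 and 4.81), Htra1 (3.65 and 3.94), Bmper (2.60 and 3.95), Chrd (2.47 and 2.66), Twsg1 (1.56 and 1.58) and Fstl1 (1.34 and 2.35). Crim1, a membrane protein with chordin-like repeats, was called higher in NASH-fib than in HSCs (1.44), a call lost in 8 of 9 fits that left out a library, all but that without HSC 2. It was also higher in NASH-fib than in CCl4-fib (2.40), which was lost without CCl4-fib 2. Tll1, a relative of Bmp1, was called higher in CCl4-fib (3.32), which was lost without HSC 2 or 3 or any CCl4-fib library. In NASH-fib the calls of Chrd (without HSC 1 or 3 or NASH-fib 1 or 2), Fstl1 (without HSC 3 or NASH-fib 1 or 2), Nbl1 (without NASH-fib 2 or 3) and Bmper (without NASH-fib 3) were also lost. Fstl3 shares 1157 exon bases with Prss57 on the opposite strand, Chrd 239 with Thpo, Crim1 123 with Fez2 and Fst 115 with Gm47040.

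Of the ligand genes outside the 10, 8 were tested. Bmp3, whose product opposes other BMPs, had values of 7.01, 5.82 and 0 in HSCs, 15.1, 21.3 and 10.5 for CCl4-fib and 1131, 268 and 464 for NASH-fib. Against HSCs it was higher by 7.10 on the log2 scale (SE 0.83, limma adjusted p = 0.0003) and against CCl4-fib by 5.02 (SE 0.83, adjusted p = 0.0102), and both calls were kept without any one library. Bmp7 had 5 reads in the HSC libraries together, 42 in CCl4-fib and 62 in NASH-fib, and was called higher in NASH-fib (3.04), a call lost without HSC 2 or NASH-fib 2, and in CCl4-fib (2.33), a call lost in 6 of 9 fits that left out a library, those without HSC 1 or 2, any CCl4-fib library or NASH-fib 3. Gdf6 was called lower in NASH-fib (-1.83), which was lost in 7 of 9 such fits and kept without CCl4-fib 1 or CCl4-fib 3. Gdf10 (-2.33) was lower in CCl4-fib and was not called in NASH-fib (-1.18, limma adjusted p = 0.109). In HSCs its level per kilobase of exon (372) was above that of Bmp10 (115). Inhbc, an activin gene of hepatocytes, had 78 reads in HSCs and 1 in CCl4-fib, a ratio of read shares of 114 (95% counting interval 19.9 to 4570). A counting interval pools the reads of a group and leaves out the spread between libraries, here 8, 29 and 41 reads in HSCs. By limma the log2 fold change of Inhbc in CCl4-fib was -4.52 (SE 0.94, adjusted p = 0.00516).

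Of the 6 type I receptor genes, 1 was called higher and 1 lower against HSCs in each fibroblast group. Of all tested genes 12.5% were called in NASH-fib and 27.8% in CCl4-fib. Acvr1c, which encodes ALK7, had values of 124, 313 and 112 in HSCs, 0, 0 and 0.95 for CCl4-fib and 1.36, 0 and 18.7 for NASH-fib. The HSC libraries together held 415 of its reads and CCl4-fib 1, a ratio of read shares of 608 (95% counting interval 108 to 24100). By limma its log2 fold change was -7.04 (SE 1.01, adjusted p = 0.000664) in CCl4-fib and -5.52 (SE 1.01, adjusted p = 0.00441) in NASH-fib. Bmpr1b had 0 reads in all HSC libraries and values of 11.9, 12.8 and 0 for CCl4-fib and 89.7, 57.9 and 43.2 for NASH-fib, where it was at least 16.7-fold higher than in HSCs. Its call between the fibroblast groups (3.46) was kept in 1 of 9 fits that left out a library, that without HSC 2. That call was also lost under edgeR, a pseudocount of 0.5, no filter, the 2 groups alone and the replicate block. Acvrl1, the receptor of BMP9 and BMP10, was called higher in CCl4-fib (2.21, SE 0.48, limma adjusted p = 0.00643). In NASH-fib it went the same way without a call (1.33, limma adjusted p = 0.111), and it was not called between the fibroblast groups (-0.89, adjusted p = 0.247). The other 3 type I genes were called in neither comparison with HSCs, with log2 fold changes of -0.57 to 1.28.

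Of the 4 type II receptor genes, 1 was called lower in NASH-fib and 2 lower and 1 higher in CCl4-fib. Here and for the co-receptors below, the shares over all tested genes were again 12.5% and 27.8%. The activin receptor gene Acvr2a had values of 1051, 1629 and 788 in HSCs, 63.5, 105 and 94.5 for CCl4-fib and 451, 148 and 271 for NASH-fib. It was lower by a log2 fold change of -2.07 (SE 0.47, limma adjusted p = 0.0136) in NASH-fib and -3.67 (SE 0.47, adjusted p = 0.000308) in CCl4-fib, the former call being lost without NASH-fib 2. Bmpr2 was lower in CCl4-fib (-1.72, limma adjusted p = 0.0218), a call lost without HSC 1 or 2 or any CCl4-fib library, and Amhr2, with 0 reads in HSCs, was at least 14.1-fold higher there and lower in NASH-fib than in CCl4-fib (-4.06, limma adjusted p = 0.0162), a call lost without CCl4-fib 1 or 2. Of the 6 tested co-receptors, NASH-fib had 2 as higher and 1 as lower by the call, and CCl4-fib 2 and 3. The endothelial gene Eng was lower in both groups (-2.70 and -2.63) and Neo1 (1.85 and 1.61) higher in both. Hfe2, which encodes the hepcidin regulator hemojuvelin, was called lower in CCl4-fib (-3.22), where it had at most 4 reads in a library, a call lost without HSC 2 or CCl4-fib 1, and Tgfbr3, the gene of betaglycan, was lower there as well (-1.20), which was lost without HSC 1 or CCl4-fib 2 or 3. Rgma, a glycolipid-anchored co-receptor, had 1 read in the HSC libraries together, 59 in CCl4-fib and 37 in NASH-fib, ratios of read shares of 40.3 (95% counting interval 6.95 to 1620) and 30.6 (5.16 to 1240). By limma its log2 fold change was 3.66 (SE 0.69, adjusted p = 0.00306) in CCl4-fib and 3.39 (SE 0.69, adjusted p = 0.00804) in NASH-fib.

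Among the 12 Smad genes and their regulators, Smad9 was called higher in NASH-fib (3.23, SE 0.61, limma adjusted p = 0.00526), with values of 8.18, 4.37 and 19.1 in HSCs, 36.5, 40.8 and 14.3 for CCl4-fib and 89.7, 85.5 and 104 for NASH-fib. Smad1 (-1.50, lost without HSC 1 or 2 or CCl4-fib 2 or 3) and the inhibitory Smad7 (-1.73) were called lower in CCl4-fib. In NASH-fib both went the same way without a call (-1.18 and -1.05, limma adjusted p = 0.0799 and 0.112). The other 9 genes were called in neither comparison with HSCs. Between the fibroblast groups 0 of the 12 were called, Smad9 included (1.70, limma adjusted p = 0.101). Of the 12 tested target genes, Tgfbi was lower in both groups (-3.25 and -3.48) and Hamp, which encodes the hepatocyte hormone hepcidin, was lower in CCl4-fib (-2.69) and higher in NASH-fib than in CCl4-fib (2.46, lost without CCl4-fib 1 or 2 or NASH-fib 1 or 3), as 8 of 15 hepatocyte markers also were. Pmepa1, whose product dampens Smad signals, was called lower in NASH-fib than in CCl4-fib (-1.61, limma adjusted p = 0.0365), which was lost in 6 of 9 fits that left out a library, those without HSC 1, any CCl4-fib library or NASH-fib 1 or 3. Id2, another bHLH inhibitor, had a log2 fold change of 1.05 (limma adjusted p = 0.092) in NASH-fib. Id3 had values of 602, 572 and 583 in HSCs, 2600, 3240 and 467 for CCl4-fib and 329, 762 and 478 for NASH-fib, and CCl4-fib 3 stood apart from the other libraries of its group.

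**Figure D4:**
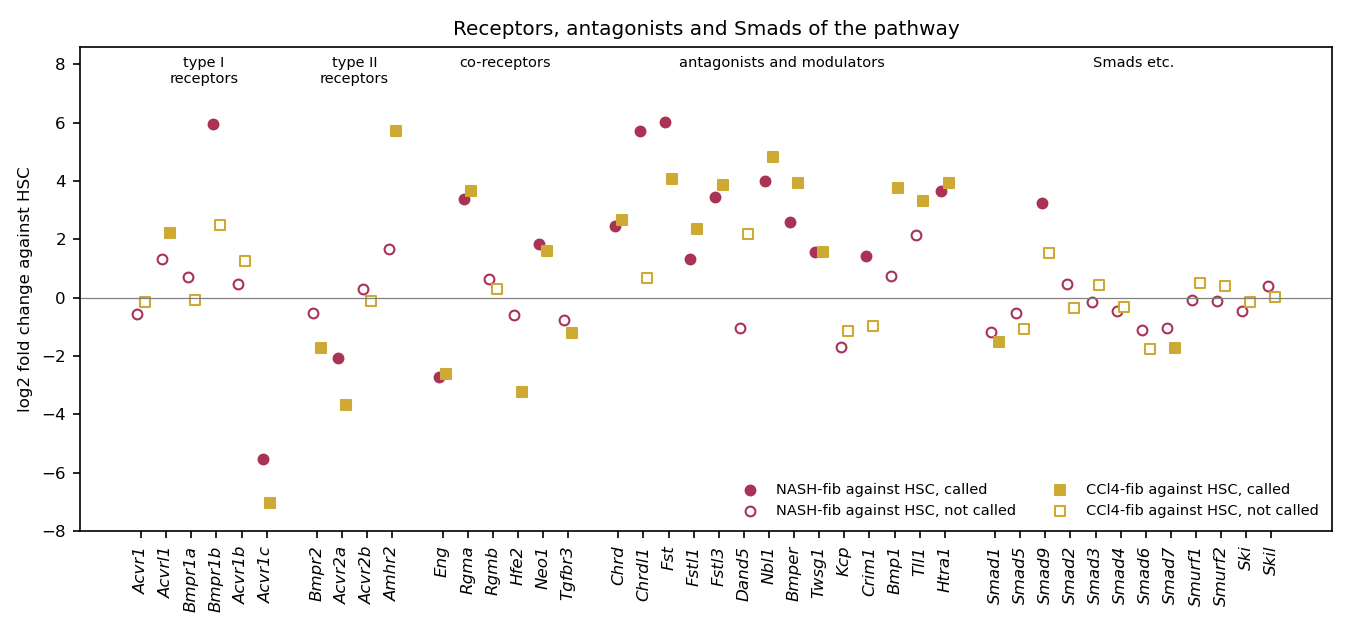
Log2 fold change against HSCs (y axis) of the tested receptor, co-receptor, antagonist and Smad genes, with circles for NASH-fib and squares for CCl4-fib. Filled symbols are called. The antagonists and modulators hold 10 filled symbols above 0 in each group, and the lowest points are those of Acvr1c. Estimates of genes without reads in HSCs, such as Bmpr1b and Amhr2, depend on the pseudocount.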

How the data were processed

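Libraries from HSCs, CCl4-fib and NASH-fib (3 each) were grouped by their titles in the labels, and replicate numbers were taken from the titles. Per the labels and the methods of the study, RNA of pooled cells was amplified with the SMARTer kit, sequenced as single-end reads and aligned to mm10 with STAR, and the submitters' processing notes also name CASAVA. By the file header, HOMER counted reads on RefSeq exons regardless of strand, kept up to 3 reads at a position, merged the transcripts of a gene and normalized 10 libraries together, of which 9 have a column. The values deposited by the authors are a normalized signal, the count multiplied by 1 factor per library. Whole reads were recovered for 100% of the values after division by that factor (tolerance 0.011), and 0 columns of values were left unused. No library was a copy of another.

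Since the values are not counts, limma 3.58.1 (R 4.3.3) was fitted to log2(value + 1) with a trend and 3 group means over the 9 libraries. Genes were kept by edgeR's filterByExpr (minimum count 10) on the recovered reads, which left 13651 of 24453. Adjustment was by Benjamini-Hochberg over all of them. Fits were tested on simulated data with 200 changed genes. Alternatives were edgeR 4.0.16 and DESeq2 1.42.0 on the recovered reads, rescaling by their factors, pseudocounts of 0.5 and 5, no filter, the 2 groups compared alone, blocks for the replicate number and the day-like prefix of the library names, and each library left out in turn. Exon overlaps came from GENCODE M21 on GRCm38 and promoters from RefSeq (GRCm38.p6). Counting intervals are exact (Clopper-Pearson) on the reads summed over a group, and leave out the spread between libraries.

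The members were given by symbol. The pathway lists and the marker lists (quiescent stellate cell, activated fibroblast, sinusoidal endothelial cell, macrophage, lymphocyte, neutrophil, cholangiocyte, hepatocyte, mesothelial cell, portal fibroblast, smooth muscle, proliferating cell) were written from general knowledge, and 1 pathway gene is not reported here. Members and lists were chosen with earlier results of these data known. Named were all members, called pathway genes (at most the 10 with the largest change per direction and comparison), receptors and Smads, and the 2 genes nearest to each member over 9 libraries. Twsg1 and Fstl1, called but outside the 10, and Id2 and Id3 were named after their values were seen. Replicate numbers did not pair the libraries.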

Additional observations from a re-analysis of the deposited data

How the results depend on the processing

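Each value was recomputed under 19 alternatives. Of 512 values for single members, 464 kept their direction and side of the threshold. Calls of members in NASH-fib against HSCs numbered 7, 7 to 8 with a library left out and 3 with the day-like prefix of the library names as a block, which lost Bmp4 (adjusted p = 0.053), Bmp6 (0.145), Bmp10 (0.0604) and Bambi (0.182). Calls in CCl4-fib against HSCs numbered 6, 4 to 7 with a library left out and 4 with the prefix block, which lost Bmp6 (0.15) and Bambi (0.152). Between the fibroblast groups there were 2, with 0 to 2 when a library was left out, 1 with the prefix block, which lost Bmp2 (0.0579), 2 by edgeR and 3 by DESeq2. The 0 came from limma without CCl4-fib 1, 2 or 3 or NASH-fib 3, where 2 to 3 members passed at an unadjusted p under 0.05. The replicate block gave 7, 5 and 1 calls in the 3 comparisons. It is no pairing, since same-numbered libraries of different groups had correlated deviations of -0.473 to 0.514 (median 0.00195) and others of -0.588 to 0.645. The 0.645 was that of HSC 2 and NASH-fib 1, whose names share a prefix, and the other pairs that share a prefix had -0.171 to 0.0399. Other pathway genes called in NASH-fib against HSCs numbered 21, 14 to 21 with a library left out and 9 with the prefix block, those in CCl4-fib against HSCs 27 and 22 to 32 with a library left out, and those between the fibroblast groups 8, 3 to 11 with a library left out, 5 with the prefix block and 18 by DESeq2. Values that changed sign were uncalled. Inhba in NASH-fib against HSCs was 0.28 by edgeR and DESeq2, 0.0176 and 0.0198 under the rescalings, 0.0123 with a pseudocount of 5, and -0.54 to 0.75 with a library left out (0.11 without HSC 1 or HSC 3, 0.75 without NASH-fib 1, -0.51 without NASH-fib 2). Id1 in CCl4-fib against HSCs was -0.0156 under the TMM rescaling and -0.29 to 0.55 with a library left out (-0.29 without HSC 3 or CCl4-fib 2). Bmp10 between the fibroblast groups was -0.0732 by edgeR, -0.0726 with a pseudocount of 5, -0.0908 by DESeq2 and -0.88 to 0.60 with a library left out (-0.42 without NASH-fib 3), and Gdf2 was -0.0031 without CCl4-fib 3, with a range up to 0.94 (0.92 without CCl4-fib 2). The cause was not tested. The rescalings moved the median log2 fold change of all genes from 0.18 to 0.07 and 0.08 in CCl4-fib against HSCs and from -0.11 to 0.07 and 0.05 between the fibroblast groups, and no call of a member changed under them. At this depth Bmp10 in fibroblasts and Grem1 rest on fewer than 20 reads per library.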
